A study of Mus musculus with 3 samples.

Results

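Fat cells take up fatty acids with the membrane receptor CD36 and carry them inside the cell on small fatty acid binding proteins, of which FABP4 is the main form in adipocytes and FABP5 a close relative made in many tissues. The open chromatin around the genes Fabp5, Fabp4 and Cd36 was compared here between fat cells grown from 3 mouse depots. DNase-seq was used, in which the enzyme DNase I cuts exposed DNA and the positions of the cuts are read as sequence tags. A stretch that gathers many tags is a hypersensitive site. The members are the listed sites with their midpoint in either of 2 windows of the mouse genome build mm9: chr3:9980000-10280000, which holds Fabp5 at its low end and Fabp4 at about 10204000 to 10208600, and chr5:17230000-17560000, which holds Cd36 and the stretch upstream of it. The windows were chosen by position with earlier results of these data known, so the density and strength of their sites are a description, and the depots are compared by site position, normalized tag count and rank in their own list. There were 110 member sites among 172496 listed sites, and they merged into 63 regions of 99297.

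The cultures came from brown adipose tissue (BAT, pooled interscapular, cervical and axillary fat), inguinal white adipose tissue (iWAT, under the skin) and epididymal white adipose tissue (eWAT, in the abdomen) of male NMRI mice aged 4 to 5 weeks. In all 3 groups the stromal-vascular fraction (SVF), which holds the precursors of fat cells, was differentiated in medium with 10% newborn calf serum, 30 nM insulin, 25 µg/ml ascorbate and 1 µM rosiglitazone, an agonist of the fat cell regulator PPARγ, and harvested on day 8. Only cultures with more than 50% differentiated cells were used. There was 1 library per depot, so no difference between depots has a replicate error and no p-value is given. A library covers a whole culture, in which a larger share of differentiated cells and more open chromatin per cell cannot be told apart. The lists held 48308 sites in BAT, 63214 in iWAT and 60974 in eWAT, and the median site rested on 14, 14 and 16 tags. The depot labels were not checked against marker genes, since no mm9 annotation was used here.

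CD36 binds long-chain fatty acids at the cell surface, and FABP4 (also called aP2) binds them in the cytoplasm. Both Fabp4 and Cd36 are classical targets of PPARγ, and an enhancer several kilobases upstream of Fabp4 is the element by which transgenes have long been directed to mouse fat. Fabp4 and Cd36 are both read towards lower coordinates, so that their upstream side is at higher coordinates. In the RefSeq gene table (GRCm38.p6, used for gene order only) the protein-coding genes of the first window run Fabp5, Pmp2, Fabp9, Fabp4 and Fabp12. Pmp2, Fabp9 and Fabp12 encode further members of the fatty acid binding protein family. Cd36 lies between Sema3c, which encodes a secreted guidance protein, and Gnat3, which encodes the taste G protein gustducin.

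Of the 3 genes, the RefSeq promoter table holds Cd36. Its 250 bases before the start, GRCm38.p6 chr5:17835897-17836146 on the minus strand, are shown because PPARγ and C/EBP factors act on this gene. Capitals mark the matches to 2 of the motifs searched:

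Cd36: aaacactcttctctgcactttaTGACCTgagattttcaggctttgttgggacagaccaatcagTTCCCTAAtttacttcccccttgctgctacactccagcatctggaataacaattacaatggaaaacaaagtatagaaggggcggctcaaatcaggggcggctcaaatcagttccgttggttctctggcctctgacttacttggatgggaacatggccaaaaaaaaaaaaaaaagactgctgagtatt

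The nuclear receptor core element AGGTCA matched at positions -228 to -223 on the opposite strand, and 14.0% of the 32851 promoters held it on either strand. The loose C/EBP pattern TTNNGNAA matched at -187 to -180, also on the opposite strand, and 36.8% of promoters held it. No match was found for the PPAR type of element (AGGTCA repeated in the same direction 1 base apart), TTGCGCAA, the nuclear factor I palindrome or its part TTGGCA, the EBF palindrome or TATAAA, which 0.0335%, 0.164%, 0.0365%, 12.3%, 0.779% and 12.4% of promoters held. A match is a run of letters and no evidence of a bound factor. The promoter is in another build than the sites, so which sites lie on it was not determined.

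Both windows were rich in listed sites in each depot. The Fabp window of 300 kb held 18 sites in BAT, 15 in iWAT and 21 in eWAT, where the median window of that length held 4, 6 and 6. This is 6.0, 5.0 and 7.0 sites per 100 kb, against 1.88, 2.46 and 2.37 over the whole lists. Among consecutive windows of 300 kb over the genome, 3.94% held at least as many sites in BAT, 16.7% in iWAT and 3.68% in eWAT. The Cd36 window of 330 kb held 16 sites in BAT, 20 in iWAT and 20 in eWAT, and 8.48%, 8.67% and 7.28% of windows of that length held as many. BAT had the fewest sites around Cd36, and its list is the shortest.

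By tag count the median site of the Cd36 window ranked higher than that of the Fabp window in each depot. The 95% intervals of the 2 windows given below overlapped in each depot. A percentile here is the share of sites in the depot's own list with a lower normalized tag count, with tied sites given the middle of their ranks, and a strong site is one above the 75th percentile. Around Cd36, 13 of 16 BAT sites were strong (81.2%, 95% interval 54.4 to 96.0), 8 of 20 in iWAT (40%, 19.1 to 63.9) and 10 of 20 in eWAT (50.0%, 27.2 to 72.8). Of all listed sites, 26.2% in BAT, 26.1% in iWAT and 25.6% in eWAT were strong by this definition. The intervals are exact (Clopper-Pearson), cover counting error only, and treat neighbouring sites as independent. The median site of the Cd36 window stood at percentile 94.6 in BAT, 69.8 in iWAT and 73.0 in eWAT. Sites in the top 1% of their list numbered 2, 2 and 3, where 0.975%, 1.00% and 0.974% of all sites were that high. Because the BAT list is the shortest, each list was also cut to its 48308 sites of highest tag count. Then 13 of 16 Cd36 sites were strong in BAT, 8 of 15 in iWAT and 8 of 14 in eWAT. The median site of the window stood at percentile 94.6, 75.5 and 80.1, with the white depots nearer to BAT than in the full lists.

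In the Fabp window, 8 of 18 BAT sites were strong (44.4%, 21.5 to 69.2), 3 of 15 in iWAT (20%, 4.3 to 48.1) and 8 of 21 in eWAT (38.1%, 18.1 to 61.6). The median site stood at percentile 64.1 in BAT, 54.6 in iWAT and 44.4 in eWAT. With all lists limited to a score of at least 8.87 in normalized tags it stood at 61.4, 54.6 and 65.4. This limit left 42606 sites in BAT, 63214 in iWAT and 39039 in eWAT, and it treats normalized tags as comparable between libraries. With lists of equal length it stood at 64.1, 49.1 and 33.4, in the order of the full lists. The order of the depots thus depended on how the lists were limited. No site of this window was in the top 1% of its list. The highest sites of the window stood at percentile 98.2 in BAT, 93.0 in iWAT and 95.5 in eWAT. By rank the median Fabp site lay nearer to the middle of each list than the median Cd36 site.

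The Fabp4 gene itself was empty in all 3 lists. No site overlapped the interval of Fabp4, and none of the lists held a site in the 38.1 kb from 10175848 to 10213935. This is the longest empty stretch of the window. A list requires a tag density at least 4 times that of the surroundings, which leaves out sites whose surroundings are rich in tags, so a gap in the list does not show closed chromatin.

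The site nearest to Fabp4 lay upstream of it, at chr3:10213935-10214174, with its centre 5.45 kb above the Fabp4 interval. It was listed in BAT and in eWAT but not in iWAT. BAT had 30.0 normalized tags there (35 tags, 95% counting interval 24.4 to 48.7), at percentile 93.1 of its list. eWAT had 15.5 normalized tags (26 tags, 17.0 to 38.1), at percentile 82.0. The normalized counts are relative to each library and cannot be set against each other directly, so the depots are compared by percentile. The nearest iWAT site was 25.6 kb away. The tag density over the surroundings was 5.37-fold in BAT and 4.14-fold in eWAT, where the lists require 4. By this measure the site was at percentile 10.2 in BAT and 1.5 in eWAT. Whether iWAT had tags there below that minimum was not tested.

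The next site, at chr3:10216746-10216968 and 8.26 kb above the interval, was listed in BAT alone. It had 21.4 normalized tags (25 tags, 16.2 to 36.9) at percentile 83.0, and its density was 4.28 times that of the surroundings. The nearest eWAT site was the one described above, 2.59 kb away, and the nearest iWAT site lay 22.8 kb away. Both sites closest to Fabp4 were thus strong by tag count in the depots that listed them and low in their lists by enrichment.

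By tag count, strong sites lay mostly on the upstream side of Fabp4, a split made after the values were seen. Above the interval, 6 of 7 BAT sites, 3 of 4 iWAT sites and 5 of 7 eWAT sites were strong, with median percentiles of 90.3, 87.2 and 82.0. Below it, towards Fabp5, 2 of 11 BAT sites, 0 of 11 iWAT sites and 3 of 14 eWAT sites were strong, with median percentiles of 52.9, 54.6 and 44.4. The difference between the sides by tag count had the same direction in all 3 depots, which listed partly the same regions and so do not count as independent cases. By enrichment over the surroundings, few sites of either side were in the top 25% of their list. Above the interval only chr3:10239765-10240010 was, at percentile 91.5 in BAT and 86.2 in eWAT. Below it a BAT site at chr3:10092462-10092684 (79.1) and iWAT sites at chr3:9996327-9996549 (97.5) and chr3:10173804-10174026 (79.6) were. The split is thus described for tag count only.

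**Figure D1:**
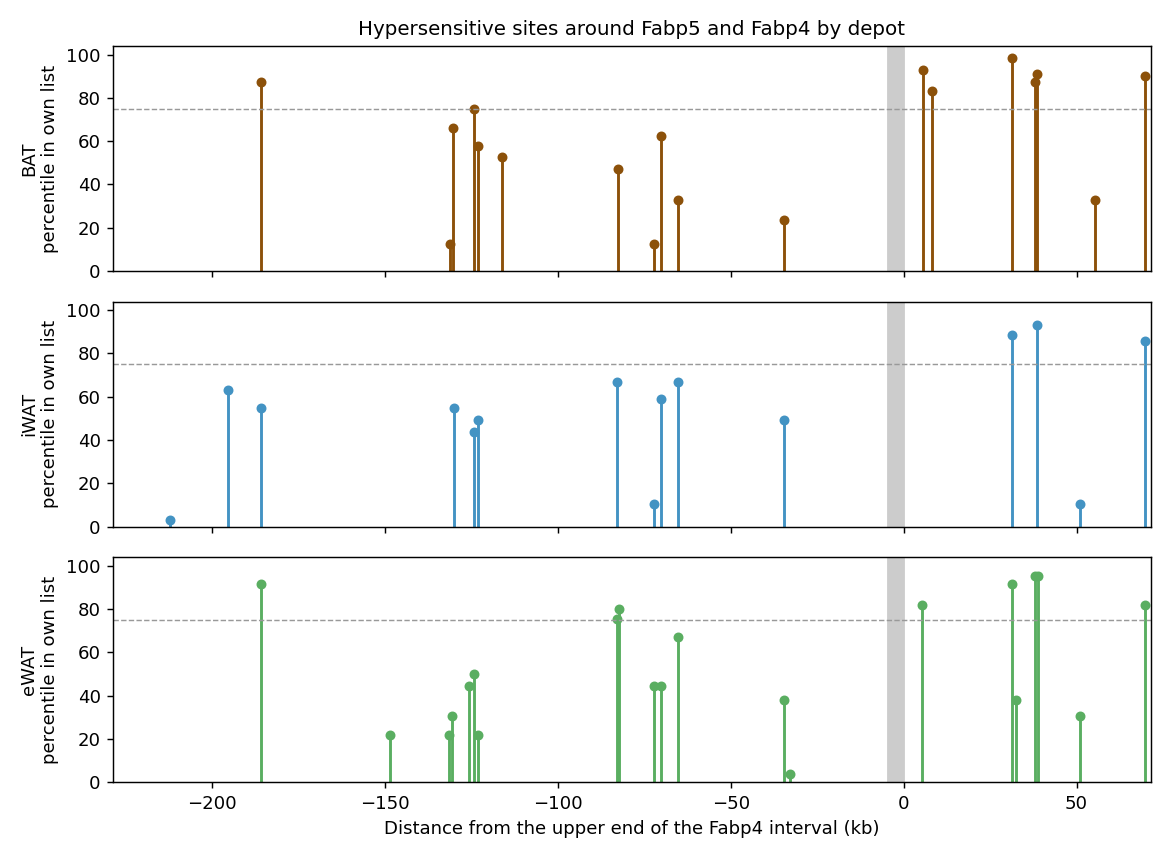
Each stem is 1 listed site of the Fabp5-Fabp4 window, placed by its distance in kb from the upper end of the Fabp4 interval (grey band), with its percentile by tag count in the own list of BAT, iWAT and eWAT. The dashed line marks the 75th percentile. The band holds no site in any depot, and the high sites stand mainly to its right; the site at 5.45 kb is listed in BAT and eWAT, and that at 8.26 kb in BAT alone.

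The strongest region that all depots listed on the Fabp4 side was chr3:10239765-10240010, 31.3 kb above the interval. BAT had 43.7 normalized tags (51 tags, 38.0 to 67.1) and ranked it 841st, at percentile 98.2. iWAT had 28.6 (29 tags, 19.4 to 41.6) at percentile 88.4, and eWAT had 20.2 (34 tags, 23.5 to 47.5) at percentile 91.5. The site stood well clear of its surroundings, by 17.61-fold in BAT, 12.77-fold in iWAT and 11.9-fold in eWAT. It was the highest site of the window in BAT.

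To compare tags between libraries of unknown scaling, the ratio of normalized tags at a region was divided by the median ratio of that pair of depots over the 24988 regions with exactly 1 site in each list. At this region the ratio was 1.91 for BAT over iWAT (95% counting interval 1.19 to 3.13) and 1.79 for BAT over eWAT (1.13 to 2.84). Ratios at least as high were found at 3.58% and 4.78% of these regions. The ratio for iWAT over eWAT was 0.93 (0.55 to 1.57). The region was thus higher in the BAT library than in both white depots by more than counting error, which is the only error that can be given. It was named as the highest BAT site of the window, among other reasons, and the intervals do not allow for that choice.

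At 38.1 to 38.98 kb above Fabp4 the depots listed neighbouring but differently placed sites. BAT had 2 sites there, at 10246615-10246837 with 24.0 normalized tags (percentile 87.2) and at 10247114-10247336 with 27.4 (percentile 91.0). iWAT had 1 site, at 10247015-10247237, with 34.5 normalized tags (percentile 93.0). eWAT had 2 sites, at 10246560-10246780 with 24.4 (percentile 95.5) and at 10247475-10247695 with 23.8 (percentile 95.1). The iWAT site and the first of the eWAT sites are the highest of the window in their depots. The second eWAT site overlapped no other site and counted as single to eWAT, although a BAT site lay 139 bp and an iWAT site 238 bp away.

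At the Fabp5 end, chr3:10022676-10022916 was listed in all depots and differed most between them by percentile in this window. It stood at percentile 87.2 in BAT (24.0 normalized tags, 28 tags), 54.6 in iWAT (14.8, 15 tags) and 91.5 in eWAT (20.2, 34 tags). After scaling, BAT over iWAT was 2.03 (counting interval 1.05 to 4.1) and iWAT over eWAT was 0.48 (0.24 to 0.91), while BAT over eWAT was 0.98 (0.57 to 1.66). iWAT was the lowest of the 3 libraries here, on 15 tags. The region was named for its wide spread between depots, and the intervals do not allow for that choice. Its enrichment over the surroundings was 5.22-fold in BAT, 4.62-fold in iWAT and 5.32-fold in eWAT. iWAT also listed a site of its own 9.27 kb below the BAT site, at chr3:10013180-10013402, with 16.7 normalized tags at percentile 63.1 and an enrichment of 4.28-fold.

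Between Fabp5 and Fabp4 the common regions were of middle or low rank in at least 1 depot. At chr3:10085397-10085658 the percentiles were 57.9 in BAT, 49.4 in iWAT and 21.7 in eWAT. At chr3:10143116-10143518 they were 32.6 in BAT, 66.7 in iWAT and 67.1 in eWAT. The tags behind them were few, with 16, 14 and 12 at the first region and 12, 18 and 20 at the second. All counting intervals of the scaled ratios at these 2 regions held 1, so the order of depots there was not detectable at this depth. eWAT also listed a strong site at chr3:10126289-10126509 (14.9 normalized tags, percentile 80.1), 174 bp from a BAT site and 481 bp from an iWAT site. The region at the upper end of the window, chr3:10278155-10278431, stood at percentile 90.3 in BAT, 86.0 in iWAT and 82.0 in eWAT, and all its scaled ratios had intervals that held 1.

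The Cd36 window held some of the strongest sites of each list. The highest was chr5:17354421-17354664, listed in all depots with midpoints at most 21 bp apart. BAT had 82.2 normalized tags there (96 tags, 77.8 to 117.2) and ranked it 51st of 48308, second on chromosome 5 in the numbering of the authors' list. iWAT had 64.0 (65 tags, 50.2 to 82.8), rank 352, and eWAT had 38.7 (65 tags, 50.2 to 82.8), rank 329. It was the highest site of the window in BAT and iWAT, and in eWAT it shared the second place with another.

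After scaling, this region was higher in BAT than in iWAT by 1.61 (1.16 to 2.24) and higher than in eWAT by 1.75 (1.27 to 2.44), while iWAT over eWAT was 1.09 (0.76 to 1.56). Such ratios or higher occurred at 8.98% and 5.35% of the common regions for the 2 comparisons with BAT. The region was named for its high tag counts, BAT among them, and the intervals do not allow for that choice. In spite of its tags the region stood only 6.52-fold above its surroundings in BAT, 6.54-fold in iWAT and 4.9-fold in eWAT. By that measure it was at percentile 22.0, 19.6 and 12 of the lists.

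A second strong region, chr5:17259534-17259799 near the low end of the window, had the opposite character. It had 46.3 normalized tags in BAT (54 tags, percentile 98.6), 61.1 in iWAT (62 tags, percentile 99.2) and 28.5 in eWAT (48 tags, percentile 97.6). Here the enrichment over the surroundings was 40.82-fold in BAT, 44.77-fold in iWAT and 23.19-fold in eWAT, above the 99th percentile of each list. The focus ratio, a fraction between 0 and 1 in the deposited lists, was 0.891, 0.872 and 0.778, against list medians of 0.704, 0.704 and 0.688. These values stood at percentile 97.8 in BAT, 96.2 in iWAT and 83.8 in eWAT. No depot stood out at this region, where all 3 scaled ratios lay between 0.95 and 1.41 and each counting interval held 1.

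The region chr5:17382749-17383007, 28.3 kb above the highest one, was the top site of the window in eWAT. It had 52.2 normalized tags in BAT (61 tags, rank 380), 43.3 in iWAT (44 tags, rank 1899) and 41.0 in eWAT (69 tags, rank 235). Scaled ratios were 1.51 for BAT over iWAT (1.01 to 2.28), 1.05 for BAT over eWAT (0.73 to 1.5) and 0.7 for iWAT over eWAT (0.47 to 1.03). iWAT thus ranked it lowest, by a margin close to counting error.

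**Figure D2:**
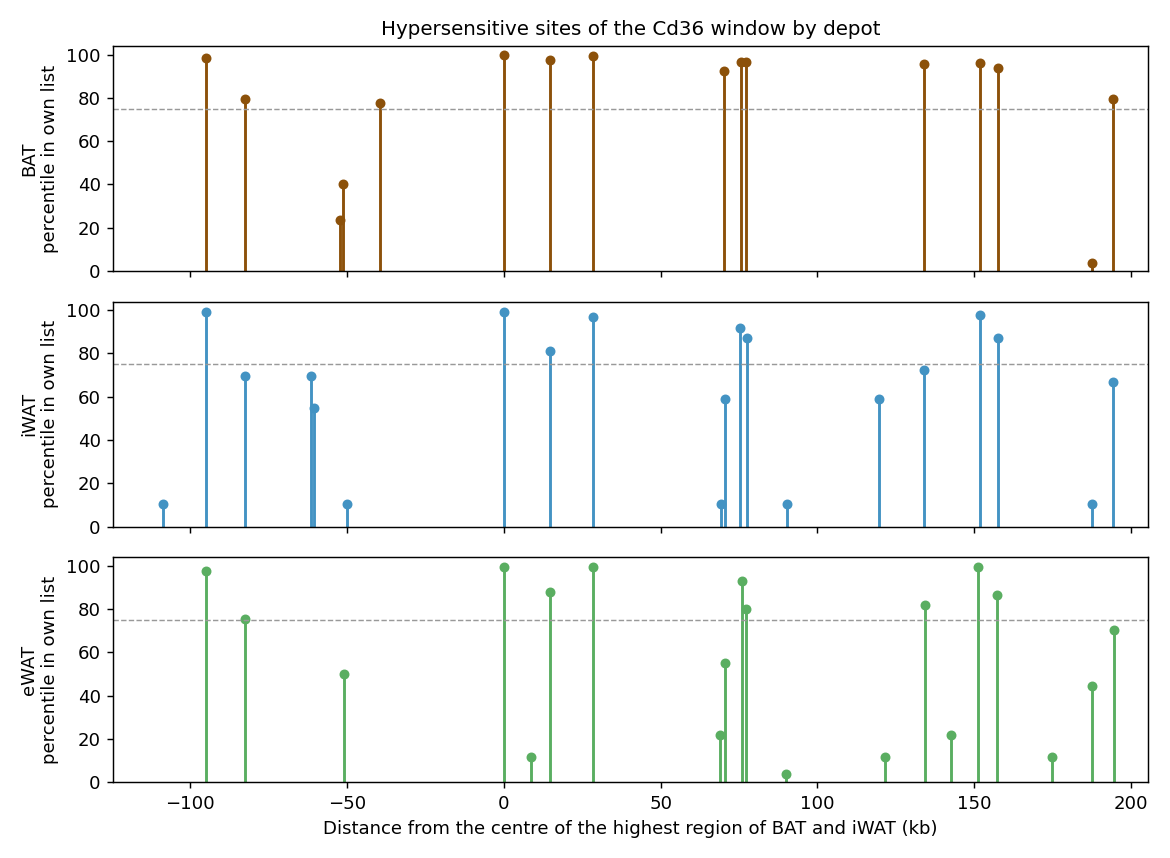
Each stem is 1 listed site of the Cd36 window in BAT, iWAT and eWAT, placed by its distance in kb from the centre of the highest region of BAT and iWAT, with its percentile by tag count in the own list. The dashed line marks the 75th percentile. Sites at -94.9, 0.0 and 28.3 kb are high in all depots, at 70.4 kb only BAT is above the line, and 13, 8 and 10 sites of BAT, iWAT and eWAT are above it in all.

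Of the 7 common Cd36 regions, BAT had the highest percentile at 4, and 2 of these had a scaled ratio of at least 2 over iWAT. At chr5:17424738-17425137, 70.4 kb above the highest region, BAT had 29.1 normalized tags (34 tags, 23.5 to 47.5) at percentile 92.5. iWAT had 15.8 (16 tags, 9.1 to 26.0) at percentile 59.1, and eWAT had 10.1 (17 tags, 9.9 to 27.2) at percentile 55.2. The scaled ratio was 2.31 for BAT over iWAT (1.24 to 4.49) and 2.38 for BAT over eWAT (1.29 to 4.54), and 1.07% and 0.948% of the common regions reached these values.

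At chr5:17369043-17369404 BAT had 39.4 normalized tags (46 tags, percentile 97.3), iWAT 23.6 (24 tags, percentile 81.3) and eWAT 17.8 (30 tags, percentile 87.8). Scaled ratios were 2.09 for BAT over iWAT (1.25 to 3.58) and 1.83 for BAT over eWAT (1.13 to 2.99). The enrichment over the surroundings was 13.91-fold in BAT, 11.25-fold in iWAT and 8.39-fold in eWAT. Ranked by enrichment within each own list, the depots stood in the same order as by tag percentile, with BAT highest and iWAT lowest. At both regions the counting intervals for BAT over each white depot lay above 1, and those for iWAT over eWAT held 1. Both regions were named for their wide spread between depots, and the intervals do not allow for that choice.

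The remaining common regions of the window did not separate the depots. chr5:17271799-17272154 stood at percentile 79.5 in BAT, 69.8 in iWAT and 75.6 in eWAT, with 23, 19 and 23 tags. chr5:17541934-17542200 was weak, at percentile 3.7 in BAT, 10.3 in iWAT and 44.4 in eWAT. Its 9, 9 and 15 tags were too few to order the depots.

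The upstream part of the Cd36 window also held strong sites that the depots placed next to each other. eWAT had 38.7 normalized tags (65 tags, percentile 99.4) at chr5:17505745-17505965, a site that overlapped no site of the other lists. BAT had 35.1 (41 tags, percentile 95.9) at 17506149-17506371 and iWAT had 48.3 (49 tags, percentile 97.9) at 17506167-17506389, and these lay 184 and 202 bp from the eWAT site. The eWAT site thus counted as single to its depot while each of the other depots listed a strong site at most 202 bp away.

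At 4 further places a strong single-depot site lay close to a strong BAT site. The eWAT sites at 17430319-17430539 (percentile 92.9) and 17488767-17488987 (percentile 82.0) lay 117 and 113 bp from BAT sites of percentile 96.6 and 95.6. The iWAT sites at 17432088-17432310 (percentile 87.2) and 17512141-17512363 (percentile 87.2) lay 97 and 71 bp from BAT sites of percentile 96.6 and 93.7. A strong single-depot site of this window without such a neighbour was the BAT site at chr5:17315021-17315243, with 18.8 normalized tags (22 tags) at percentile 77.4. The nearest iWAT site was 10.2 kb and the nearest eWAT site 11.2 kb away, and its density was 4.29 times that of the surroundings.

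The count of shared regions depended on how such neighbours were treated. Joining only sites that overlapped or touched gave 29 regions in the Fabp window, of which 10 were listed in all 3 depots (34.5%, 95% interval 17.9 to 54.3), 5 in exactly 2 and 14 in a single depot. The Cd36 window gave 34 regions, with 7 in all 3 depots (20.6%, 8.7 to 37.9), 8 in exactly 2 and 19 in a single depot. Over all regions of the lists, 25.2% were in all 3, 23.3% in exactly 2 and 51.5% in a single depot, so the members as a set, with 27.0%, 20.6% and 52.4%, were close to the background.

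With neighbours up to 200 bp apart joined too, 13 of 28 Cd36 regions (46.4%, 27.5 to 66.1) and 12 of 24 Fabp regions (50.0%, 29.1 to 70.9) were listed in all 3 depots, against 34.6% over the genome. Single-depot regions then numbered 13 around Cd36 and 9 in the Fabp window, or 46.4% and 37.5%, where the genome had 42.5%. In the Cd36 window the gain came from 6 places at which a site listed by 2 depots had a site of the other depot 71 to 184 bp away.

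Regions listed in exactly 2 depots had a median percentile, by the higher depot, of 93.0 in the Fabp window and 94.6 in the Cd36 window. These were 5 regions between 30.4 and 95.5 and 8 between 10.3 and 97.9. Taking the higher of 2 depots raises these values, so they cannot be set against those of single-depot regions. In the Fabp window the 14 single-depot regions had a median percentile of 35.3, between 2.9 and 95.1. For 6 of them another depot's nearest site was at most 1 kb away. In the Cd36 window the 19 single-depot regions had a median percentile of 54.6, between 10.3 and 99.4, and for 9 of them this distance was at most 1 kb. BAT held 4 and 3 of the single-depot regions, iWAT 2 and 7, and eWAT 8 and 9. Over all merged regions 51.5% were in a single depot. The shares by depot and by distance were not computed there, and the lists differ in length, so nothing is read from these counts. Neither iWAT nor eWAT had a site single to it that was strong and more than 1 kb from other depots in these windows.

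Over the 17 common regions of both windows, BAT had the highest percentile of the 3 depots at 9, iWAT at 2 and eWAT at 6. Among all common regions BAT was highest at 23.7%, iWAT at 37.3% and eWAT at 39.0%. Its list is the shortest, and the median difference in percentile over all common regions was -4.12 points for BAT minus iWAT and -3.94 points for BAT minus eWAT. When ranks were taken among common regions alone, BAT was again highest at 9 of the 17, against 35.0% of all common regions. The 9 were 5 of 10 in the Fabp window and 4 of 7 in the Cd36 window.

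A scaled ratio of at least 2 was found at 3 of the 17 regions for BAT over iWAT and at 1 for BAT over eWAT, where 2.80% and 2.73% of all common regions were that much higher. None was at least 2-fold lower in these comparisons (background 2.89% and 2.44%). For iWAT over eWAT, 0 were at least 2-fold higher and 1, the region at the Fabp5 end, was at least 2-fold lower (background 1.88% and 1.94%). The windows were chosen with these data known, so the counts describe the members and nothing is read from their size.

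**Figure D3:**
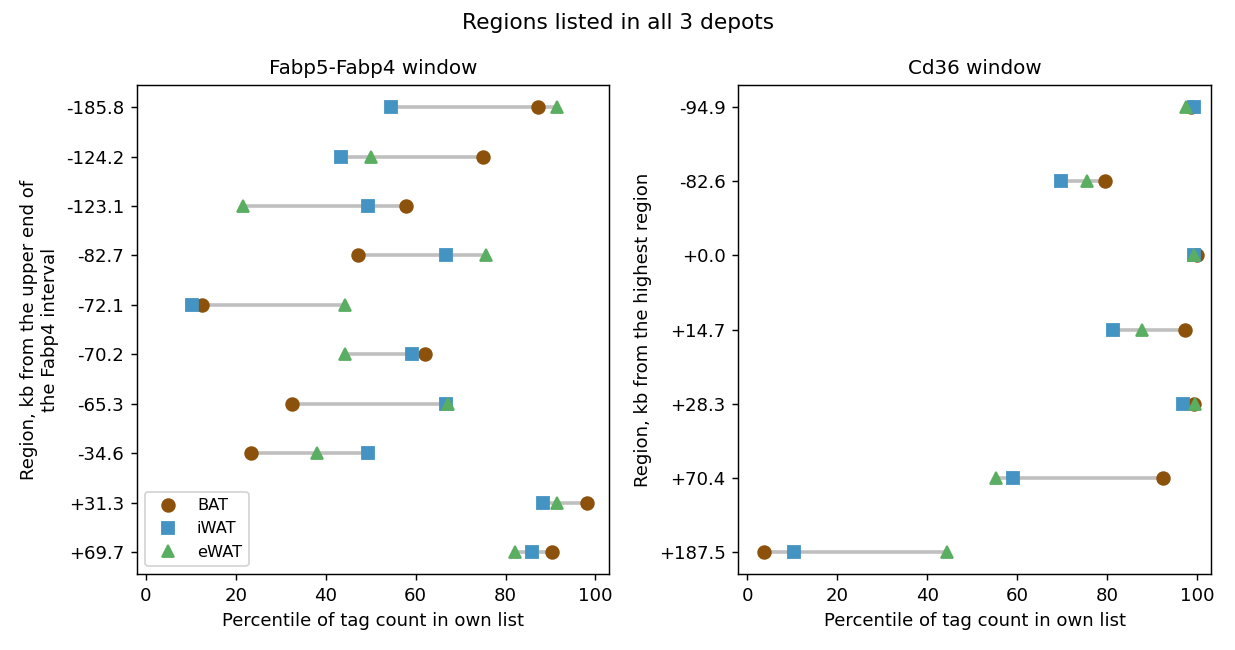
Each row is 1 of the 17 regions listed in all 3 depots, ordered by position, with its percentile by tag count in the own list of BAT (circle), iWAT (square) and eWAT (triangle); the grey bar spans the depots. The 3 points nearly coincide at the Cd36 regions at -94.9, 0.0 and 28.3 kb, while at 70.4 kb BAT stands at 92.5 and the white depots at 59.1 and 55.2.

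The spread between depots at a common region had a median of 30.0 percentile points in the Fabp window and 9.7 in the Cd36 window, against 21.6 over all common regions. Percentiles close to the top of a list leave little room to differ. Whether this lies behind the smaller spread around Cd36 was not tested. The midpoints of the 3 depots' sites lay 18 to 307 bp apart in the Fabp window (median 102) and 21 to 177 bp apart in the Cd36 window (median 44).

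Summed over all member sites, the tags of the Cd36 window made up 68.1 of every 100000 tags at listed sites in BAT, 44.8 in iWAT and 46.6 in eWAT. These shares rest on 595 (95% counting interval 548.1 to 644.8), 501 (458.1 to 546.9) and 552 (506.9 to 600.0) tags. In the Fabp window the shares were 44.2 in BAT, 23.0 in iWAT and 36.3 in eWAT, from 386 (348.4 to 426.5), 257 (226.5 to 290.4) and 430 (390.3 to 472.6) tags. iWAT was low in the Fabp window, where it listed the fewest sites. A sum over sites called separately in each list moves with the number called, which was 16, 20 and 20 for Cd36 and 18, 15 and 21 for Fabp.

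Enrichment over the surroundings ranked the members lower than their tags did. In the Cd36 window the median site was at percentile 55.7 by this measure in BAT, 32.8 in iWAT and 37.2 in eWAT. In the Fabp window it was at percentile 32.7 in BAT, 34.6 in iWAT and 24.7 in eWAT. By this measure the Cd36 window was thus not the higher one in iWAT. In the top 25% by enrichment were 5, 2 and 4 Cd36 sites and 2, 2 and 1 Fabp sites in BAT, iWAT and eWAT. A weak iWAT site at chr3:9996327-9996549, singled out after its values were seen, was an exception, with 8 tags (percentile 2.9) at 27.1-fold. The clonal fold, a deposited ratio, was 0.82 to 0.98 at the member sites in BAT, 0.87 to 0.98 in iWAT and 0.86 to 0.98 in eWAT. Its median was 0.97 in each list. At the member sites it followed the number of tags, with 0.98 at 10 tags, 0.95 at 25 and 0.82 at 96 in BAT. It is therefore not read as a measure of repeated tags.

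**Figure D4:**
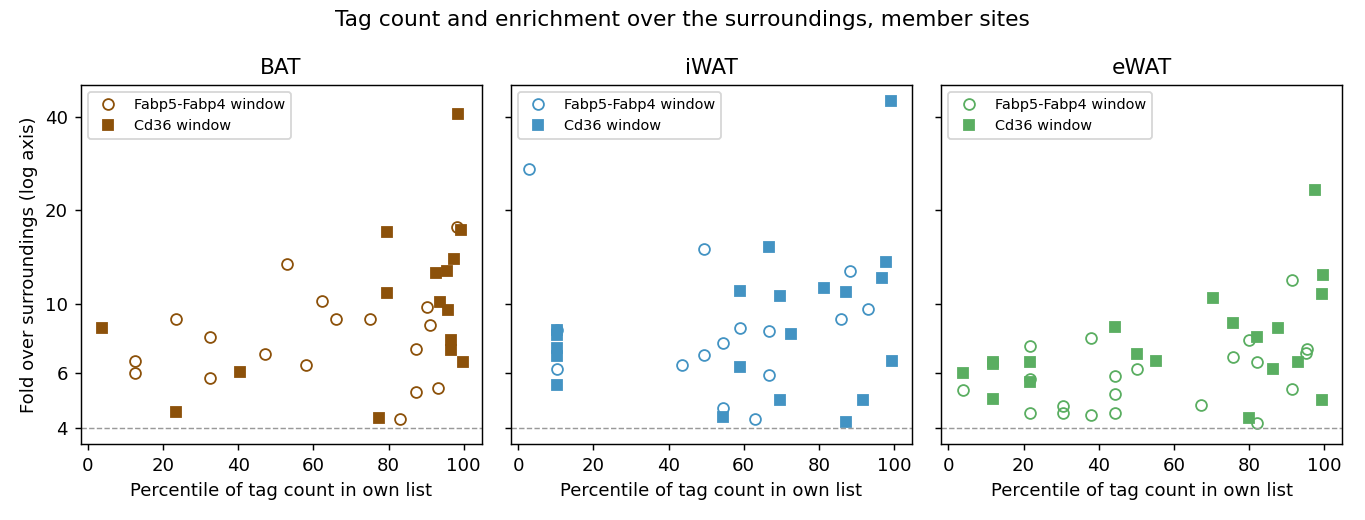
Each point is 1 member site, with its percentile by tag count (horizontal) and its tag density over the surroundings (vertical, log axis), in BAT, iWAT and eWAT; open circles are the Fabp5-Fabp4 window and filled squares the Cd36 window. The dashed line is the minimum of 4 of the lists. Several sites of high tag count, among them the highest site of the Cd36 window in BAT and iWAT, lie low on the vertical axis. The Cd36 region at 40.82, 44.77 and 23.19-fold is the highest point in each depot.

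The windows end where their positions were set, and sites of all ranks lay on both sides of the edges. The first sites inside the Fabp window stood at percentile 87.2 in BAT, 2.9 in iWAT and 91.5 in eWAT, and the last below it, 59.6, 10.6 and 10.6 kb outside, at 32.6, 49.4 and 11.8. The last sites inside it stood at 90.3, 86.0 and 82.0, and the first above it, 3.32 to 3.35 kb outside, at 96.9, 94.6 and 96.9. A strong region listed in all depots thus lies just beyond the upper edge and is not counted among the members. The first sites inside the Cd36 window stood at percentile 98.6 in BAT, 10.3 in iWAT and 97.6 in eWAT, and the last below it, 3.83 to 4.17 kb outside, at 12.5, 63.1 and 55.2. The last sites inside it stood at 79.5, 66.7 and 70.3, and the first above it, 32.8 to 33.9 kb outside, at 47.1, 84.5 and 80.1.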

How the data were processed

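DNase-seq sites of 3 libraries (BAT, iWAT and eWAT, 1 each) were taken as the authors deposited them; STAR, HOMER and the build mm9 are named in the submitters' processing notes, with neither version nor role. The deposited normalized tag count was treated as a signal relative to a library total not given in the sources used here. Its values were whole multiples of 1 step per library (0.857, 0.985 and 0.595 in BAT, iWAT and eWAT) for 100% of sites, within a tolerance of 0.005 below 10, 0.05 from 10 and 0.1 from 100, and the steps were read as tags. The deposited score (whole numbers), focus ratio (a fraction), fold or ratio over the surroundings, its p-value (highest 9.76e-05, 9.9e-05 and 9.98e-05 in BAT, iWAT and eWAT) and clonal ratio were used as given.

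Regions were made by joining sites that overlap or touch, and a region took the highest site of each depot. Percentiles are within a list. Tag intervals are exact Poisson, ratio intervals come from the exact binomial of the 2 tag counts, and both cover counting error only. Neither allows for regions having been picked by their tag counts or their spread between depots. Regions named in full were those nearest to Fabp4 (within 10 kb), the 5 of highest mean percentile, the highest per depot, strong single-depot regions, and the 3 common regions of widest spread per window; others were named after their values were seen. Members and lists were chosen with earlier results of these data known. No mm9 annotation or genome was used here, so the list of other fatty acid uptake genes was not analysed and site sequences are not shown. Merging and step finding were tested on simulated data. Python 3.11.15, numpy 2.4.6, pandas 2.3.3, scipy 1.17.1 and matplotlib 3.10.9 were used.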

Additional observations from a re-analysis of the deposited data

How the results depend on the processing

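Of 161 recomputed main values, 126 stayed within 1.5 times (counts) or within the interval of the median, and 35 did not. No paired analysis was possible because each depot has 1 library. With sites within 200 bp joined, Cd36 regions in all 3 depots numbered 13 and single-depot Fabp regions 9; within 500 bp (added after the data were seen) these were again 13 and 9, and single-depot Cd36 regions 11. With a common minimum score, 4 eWAT Fabp sites were strong. Ranked by fold over the surroundings, strong sites numbered 2 in BAT and 1 in eWAT around Fabp, and 5, 2 and 4 in BAT, iWAT and eWAT around Cd36. Median percentiles were then 34.6 in iWAT and 24.7 in eWAT (Fabp) and 55.7 in BAT and 32.8 in iWAT (Cd36), and over the named regions 17.5 in BAT and 22.7 in iWAT (Fabp) and 57.4 in iWAT (Cd36). With the top 10% as strong, counts were 4, 1 and 4 around Fabp in BAT, iWAT and eWAT, and 5 and 5 around Cd36 in iWAT and eWAT. Windows 50 kb longer at each end gave 23 iWAT Fabp sites, 6 of them strong. Windows 50 kb shorter gave 8 iWAT Fabp sites, strong Fabp sites of 3, 0 and 3 in BAT, iWAT and eWAT, 9 single-depot Fabp regions and 4 common Cd36 regions. With ranks among common regions, iWAT Fabp medians were 32.0 over sites and 36.4 over named regions. Scaling to the sum over listed sites, chosen after seeing the data, moved the median of all common regions to 1.17 for BAT over iWAT and 1.14 for BAT over eWAT, and gave 5 and 3 regions at least 2-fold higher in BAT. The causes were not tested. The BAT-only site beside Fabp4 rests on 25 tags, and the median listed site on 14 to 16, which limits what can be ordered between depots.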
